A study of Homo sapiens with 6 samples.

Results

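The genes described here were 10 transcripts that are abundant in fetal or embryonic tissue and mostly silenced afterwards, out of 35410 genes listed for the series. They were taken as a list of names, which was drawn up with earlier results of these data known: the RNA-binding proteins IGF2BP1, IGF2BP2, IGF2BP3 and LIN28B, the chromatin proteins HMGA1 and HMGA2, and the imprinted genes H19, MEG3, PEG10 and DLK1. All 10 passed the filter on low counts and were among the 15465 genes tested. By its labels, the series compared SEM, a B cell precursor leukemia line of the proB type that carries the KMT2A::AFF1 fusion, after stable transfection with an inducible EGR3 vector (SEM::EGR3) or with the empty vector (SEM::mock). Cells of both lines received doxycycline at 1 µg/mL for 48 h, and each line gave 3 libraries of 3′ cDNA ends (massive analysis of cDNA ends, MACE). The question was which transcripts differ once the transcription factor EGR3 is induced. Each line was a single transfected line and neither was sequenced without doxycycline, so an effect of EGR3 and any other difference between the lines cannot be told apart. The titles call the libraries of a line biological replicates but do not say whether these were separate cultures, so the p-values measure the spread between libraries of 1 line.

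The IGF2BP, LIN28B and HMGA genes are tied together by the let-7 microRNAs, which accumulate as tissues mature and repress messengers that carry a match to their seed. LIN28 proteins bind let-7 precursors and block their maturation, and LIN28B messenger is itself a let-7 target, so that each represses the other. IGF2BP proteins bind messengers, many of them marked by N6-methyladenosine, and stabilize them, IGF2 and MYC among the known ones. HMGA proteins bend AT-rich DNA and open chromatin, and HMGA2 is a well-known let-7 target. In B lymphopoiesis LIN28B supports the fetal type of progenitor, and in erythroid cells it sustains fetal globin. H19, PEG10, DLK1 and MEG3 are expressed from 1 parental allele only. H19 and MEG3 are noncoding RNAs, PEG10 derives from a retrotransposon, and DLK1 encodes a membrane ligand of the NOTCH family type.

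The sequences that link the IGF2BP, LIN28B and HMGA genes were the let-7 seed and its matches. All 9 mature let-7 and miR-98 names in RefSeq (GRCh38.p14) shared 1 seed, which is shown in capitals (bases 2 to 8) in let-7a.
let-7a-5p: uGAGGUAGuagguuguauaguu
Of 12 precursor hairpins of the family, 9 held GGAG, the motif that LIN28 proteins bind, between the 5′ mature arm and the 3′ arm. The hairpin of let-7g is shown as the example, with that motif in capitals.
MIRLET7G: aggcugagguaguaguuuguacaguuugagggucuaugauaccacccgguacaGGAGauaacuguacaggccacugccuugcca
The reverse complement of the seed, CTACCTC, was searched on the sense strand of 1 principal transcript per coding gene (GENCODE 29, GRCh38). It stood in the 3′ UTR of 6 of the 8 coding members, whereas 8.57% of 19124 3′ UTRs held it. IGF2BP1, LIN28B and HMGA2 had 4 matches each, and IGF2BP2, IGF2BP3 and HMGA1 had 1 each. Only 0.162% of all 3′ UTRs had 3 or more. These shares are a description only, since LIN28B and HMGA2 were known let-7 targets and 3′ UTR length was not matched. The 6 members with a match had 3′ UTRs of 1347 to 6206 bases, against a median of 1091 over tested coding genes. PEG10 and DLK1 had 0 matches. The longest listed transcript of H19 also had 0, and that of MEG3 had 2. For HMGA2 the number depends on the isoform, since the transcript with the longest 3′ UTR, which ends elsewhere, had 0. One match per gene is given here with 15 bases before it, the match in capitals together with the A that follows it in the stronger kind of site.
IGF2BP1: tgtgtgcgaagtaaaCTACCTCAag
IGF2BP2: aacacacagaagaagCTACCTCAgg
IGF2BP3: tgcatttttactcaaCTACCTCAgg
LIN28B: acccggttgcaaagtCTACCTCAtg
HMGA1: tcctctgttcacaaaCTACCTCtg
HMGA2: gccaacgttcgatttCTACCTCAgc
These matches lie in 3′ UTR exons at chr17:49051076-49051083 (+) for IGF2BP1, chr3:185644220-185644227 (-) for IGF2BP2, chr7:23311795-23311802 (-) for IGF2BP3, chr6:105078827-105078834 (+) for LIN28B, chr6:34245844-34245850 (+) for HMGA1 and chr12:65963313-65963320 (+) for HMGA2. A match is a description of the letters, and mature let-7 was not measured in these libraries.

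Library depth was 5286115 to 6181388 counts in the SEM::mock libraries and 7293092 to 15106018 in the SEM::EGR3 libraries. EGR3 itself gave 6 to 10 counts in each SEM::mock library and 4952 to 9768 in each SEM::EGR3 library (log2 fold change 8.78, SE 0.11, adjusted p = 1.27e-26, edgeR quasi-likelihood test with Benjamini-Hochberg adjustment, as for every adjusted p below). The markers of the labelled cell type were largely absent from the SEM::mock libraries. Of 18 B-lineage genes, 12 gave 3 counts or fewer in each library labelled SEM::mock, EBF1 and IGHM none at all. All 18 together summed to 269 to 289 CPM (counts scaled to equal library size, TMM-normalized) in SEM::mock against 1190 to 1230 CPM in SEM::EGR3. CD34, DNTT, BLNK and RAG2 stood at 3 counts or fewer in every library of both lines. Of 12 KMT2A fusion targets, 4 were at 3 counts or fewer in each library labelled SEM::mock, HOXA7 at 0. All 12 together summed to 246 to 259 CPM against 1270 to 1360 CPM. Of 5 genes at 9p21, all 5 were at 3 counts or fewer in each SEM::mock library (0 to 0.196 CPM summed against 193 to 197 CPM). Erythroid and megakaryocyte genes were abundant in both lines, with 5430 to 5790 CPM against 6530 to 6740 CPM over 20 listed genes, while HBB, HBE1 and AHSP were near 0. Myeloid markers summed to 379 to 393 CPM in SEM::mock and 229 to 230 CPM in SEM::EGR3, T-cell markers to 87.3 to 99.8 CPM and 133 to 145 CPM, and epithelial and fibroblast markers to 889 to 927 CPM and 588 to 624 CPM. Every tested gene of these marker lists passed an adjusted p of 0.05 (edgeR), where 68.5% of all tested genes did (36.5% higher, 32.0% lower). Within several lists the members went opposite ways. The SEM::mock sum of the B-lineage list was mostly CD24 (144 CPM, 23.5 CPM in SEM::EGR3) and TCF3 (130 CPM, 174 CPM). Of 6 tested T-cell genes 3 were higher, among them TRAC (1.21 to 74.7 CPM), and 3 lower, among them CD3D (58.1 to 6.26 CPM) and TRBC1 (31.9 to 1.70 CPM). Of 6 tested myeloid genes 4 were lower, but CEBPA was higher (12.4 to 127 CPM), and of 8 epithelial and fibroblast genes 5 were lower, but COL1A1 (3.62 to 43.2 CPM) and PDGFRB (0.0558 to 89.9 CPM) were higher. These values go against the cell type given for the libraries labelled SEM::mock. The SEM::EGR3 libraries held B-lineage markers, but also erythroid genes such as HBZ (2117 CPM) and HBA1 (1497 CPM). Whether the cells of either line are SEM was not tested. Here "rose" and "fell" therefore compare the libraries as labelled, and a difference in cell identity and an effect of EGR3 cannot be told apart. All 3 control libraries shared the low levels of B-lineage, KMT2A-target and 9p21 genes, so no comparison without them could be made. What part the difference in markers has in the values below was not tested. In bulk RNA, fewer cells of a type and less RNA per cell cannot be told apart.

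**Figure D1:**
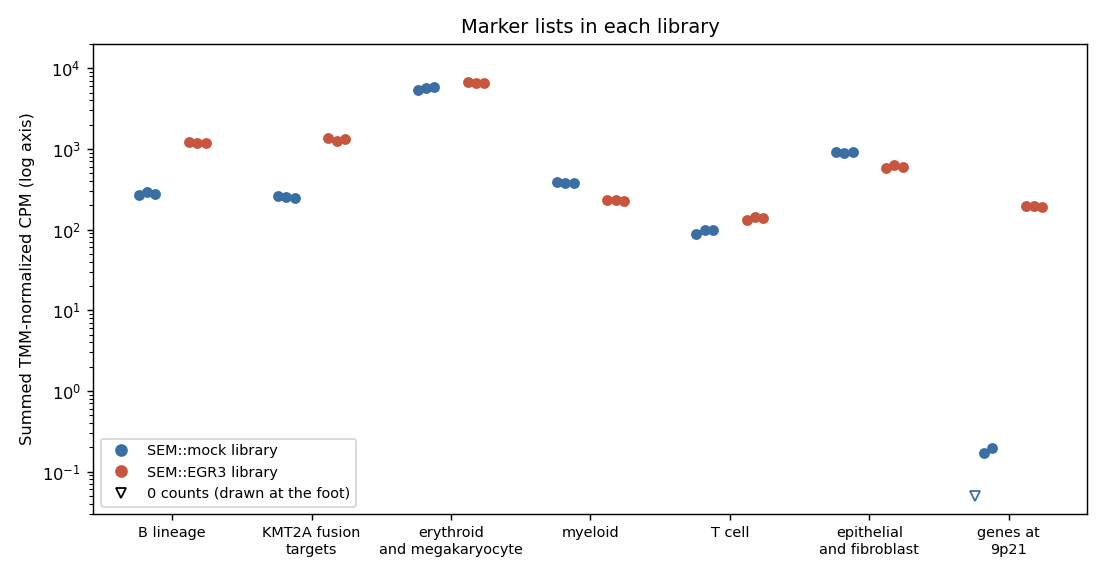
Summed level of each marker list in each library, as TMM-normalized CPM on a log axis, with SEM::mock libraries in blue and SEM::EGR3 libraries in red. B-lineage genes, KMT2A fusion targets and genes at 9p21 lie lower in all 3 SEM::mock libraries, and the open triangle marks a library with 0 counts. The T-cell list and the erythroid and megakaryocyte list also lie lower there, by smaller factors.

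Levels of these 10 genes ran from 1107 to 0.0654 CPM in SEM::mock, the low end resting on 1 read, and from 1031 to 3.79 CPM in SEM::EGR3. Their order differed between the lines. MACE counts 1 end per transcript and does not scale with gene length, so CPM of different genes were set side by side. How reads shared among genes were counted is not given, so the order is that of the counts as deposited. In SEM::mock the order was HMGA1, DLK1, IGF2BP1, MEG3, IGF2BP3, LIN28B and IGF2BP2, each above the next in every library, and then HMGA2, PEG10 and H19, whose libraries overlapped. In SEM::EGR3, DLK1 and HMGA1 led with overlapping libraries, followed by MEG3, IGF2BP1, IGF2BP3 and IGF2BP2, then HMGA2 and H19, which overlapped, then LIN28B and PEG10. LIN28B thus stood above HMGA2 and H19 in SEM::mock and below both in SEM::EGR3.

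**Figure D2:**
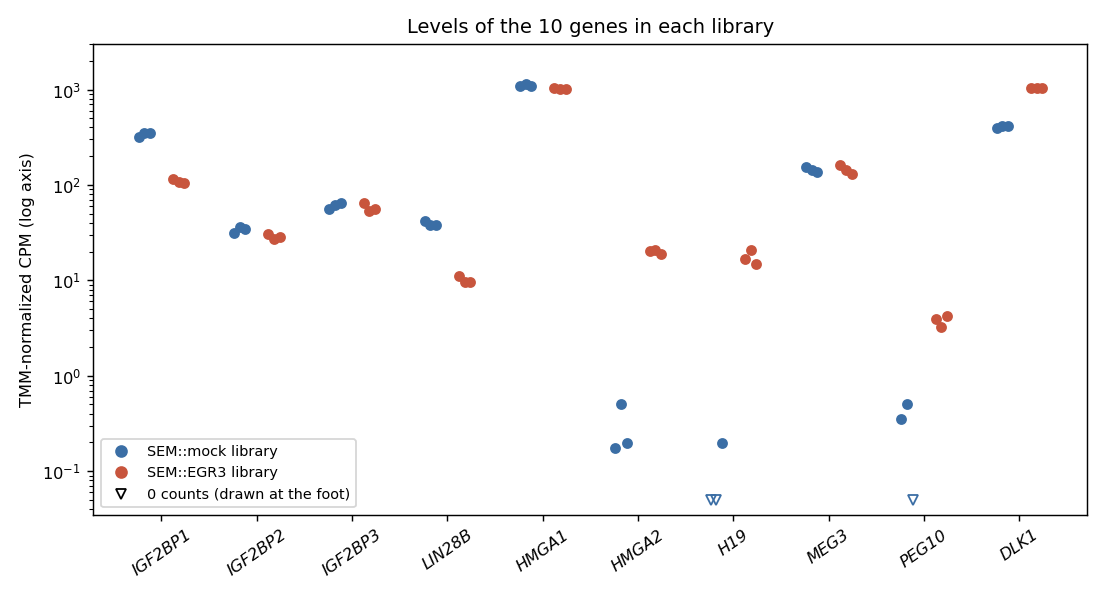
Level of each gene in each library, as TMM-normalized CPM on a log axis, with SEM::mock libraries in blue, SEM::EGR3 libraries in red and libraries with 0 counts as open triangles at the foot. HMGA2, H19 and PEG10 lie under 1 CPM in all SEM::mock libraries and between 3.23 and 20.9 CPM in SEM::EGR3, whereas IGF2BP3 and MEG3 overlap between the lines.

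Between the lines, 4 of the 10 were higher in SEM::EGR3 (HMGA2, H19, PEG10 and DLK1), against 36.5% of all tested genes, and 4 were lower (IGF2BP1, LIN28B, IGF2BP2 and HMGA1), against 32.0%. In all, 8 of 10 passed an adjusted p of 0.05 where 68.5% of all tested genes did, and the libraries of the lines did not overlap for 8 of 10 where they did not for 70.1%. The share of members that passed is therefore near that of all genes, and a call alone says little about this group. An adjusted p under 0.05 together with a log2 fold change of at least 1 in either direction was reached by 6 of 10 members and by 25.2% of tested genes. Since the members were chosen with results known, this is a description only. The median log2 fold change was -0.02 over the members and 0.03 over all tested genes. Without normalization factors 4 members were higher and 2 lower, and over all genes 59.4% of calls were then higher instead of 53.2%.

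**Figure D3:**
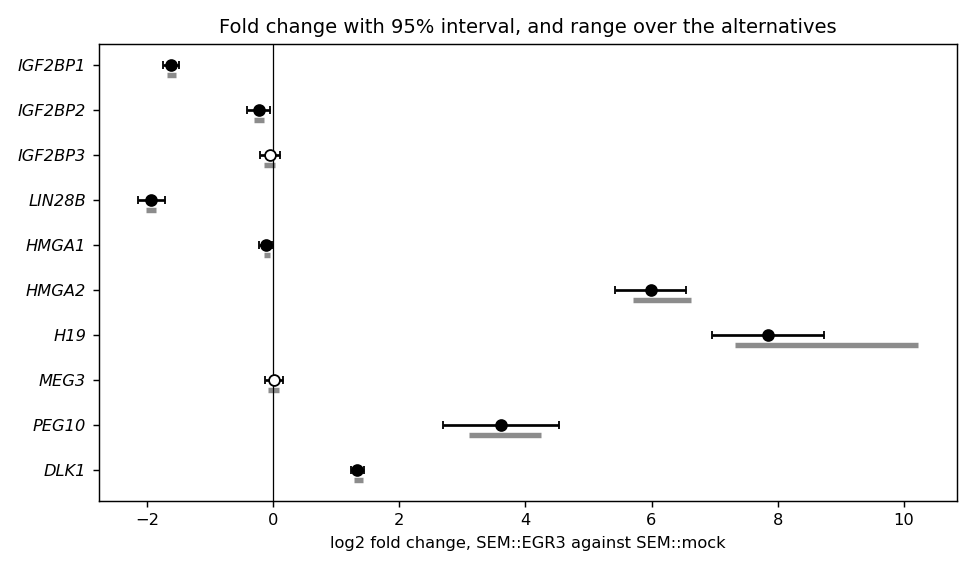
Log2 fold change of each gene in SEM::EGR3 against SEM::mock with its 95% interval, filled where the adjusted p was under 0.05, and below each the range over the alternative settings as a grey bar. IGF2BP1 and LIN28B lie below -1, IGF2BP2, IGF2BP3, HMGA1 and MEG3 near 0, and DLK1, PEG10, HMGA2 and H19 above 1.

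Among the RNA-binding proteins, IGF2BP1 and LIN28B fell. IGF2BP1 (ENSG00000159217, chr17:48997412-49055650, + strand) measured 315, 350 and 347 CPM in the SEM::mock libraries and 116, 108 and 105 CPM in the SEM::EGR3 libraries. The lines were well apart, and the mean went from 337 ± 19.2 to 109.6 ± 5.62 CPM (SD, n = 3 each). This is 3.07-fold lower (log2 fold change -1.62, SE 0.06, adjusted p = 1.05e-17, edgeR). LIN28B (ENSG00000187772, chr6:104936616-105083332, + strand), which blocks let-7 maturation in the nucleus, measured 42.1, 38.4 and 37.7 CPM against 11.2, 9.70 and 9.62 CPM. All 3 SEM::EGR3 libraries were under every SEM::mock library, 3.81-fold lower on average (39.4 ± 2.37 to 10.2 ± 0.868 CPM, log2 fold change -1.93, SE 0.10, adjusted p = 2.13e-14, edgeR). Its paralog LIN28A, which acts in the cytoplasm with the terminal uridylyltransferase TUT4, fell as well, from 148 ± 8.11 to 46.0 ± 3.35 CPM (log2 fold change -1.70, SE 0.07, adjusted p = 6.12e-17, edgeR). LIN28A was thus the more abundant LIN28 messenger in both lines. The antisense gene LIN28B-AS1 had at most 2 counts in any library.

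The other IGF2BP genes moved little or not measurably. IGF2BP2 (ENSG00000073792, chr3:185643739-185825056, - strand) measured 31.1, 36.2 and 34.7 CPM in SEM::mock and 30.9, 27.3 and 28.2 CPM in SEM::EGR3. The groups were separated only by the gap between 31.1 and 30.9 CPM, and the fall was 1.17-fold (log2 fold change -0.23, SE 0.09, adjusted p = 0.0295, edgeR). Its call was lost in 8 of 12 alternative settings, for example with DESeq2 (adjusted p = 0.0867) and without normalization factors (adjusted p = 0.152). IGF2BP3 (ENSG00000136231, chr7:23310209-23470467, - strand), a fetal gene often described in KMT2A-rearranged leukemia, measured 55.5, 61.0 and 64.7 CPM against 64.2, 53.8 and 55.5 CPM. The libraries overlapped, and the log2 fold change of -0.05 (95% interval -0.21 to 0.12, adjusted p = 0.628, edgeR) allows a small change in either direction. In SEM::mock IGF2BP1 was the most abundant of these paralogs by far, and in SEM::EGR3 it still was, at 109.6 CPM against 57.8 CPM for IGF2BP3.

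The HMGA paralogs differed in both level and direction. HMGA1 (ENSG00000137309, chr6:34236873-34246231, + strand) was among the most abundant members, with 1098, 1138 and 1086 CPM in SEM::mock and 1041, 1004 and 1021 CPM in SEM::EGR3. The libraries did not overlap, yet the difference was only 1.08-fold (log2 fold change -0.12, SE 0.05, adjusted p = 0.0361, edgeR). It did not pass in 8 of 12 alternative settings, and without normalization factors the log2 fold change was -0.04 (adjusted p = 0.493). HMGA1 has processed pseudogenes, which had at most 2 counts in any library. HMGA1P4, named as a pseudogene but listed as a long noncoding RNA, had 21, 11 and 2 counts in SEM::EGR3 and 0 in SEM::mock. How the counting treated reads shared among these genes is not given in the sources used here. HMGA2 (ENSG00000149948, chr12:65824131-65966295, + strand) was read 1, 3 and 1 times in the SEM::mock libraries, compared with 313, 153 and 170 times in the SEM::EGR3 libraries. In CPM it was close to the detection limit in the first line, at 0.292 ± 0.183, and at 19.9 ± 0.953 in the second. The ratio of pooled counts per depth was 66.5, with a 95% counting interval of 28.4 to 206 (fitted log2 fold change 5.98, SE 0.28, adjusted p = 1.02e-15, edgeR). Without SEM::mock replicate 2 the fitted value was 6.62. Its antisense gene HMGA2-AS1 had 1 count in all 6 libraries together.

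Of the imprinted genes, H19, PEG10 and DLK1 rose and MEG3 did not pass the test. H19 (ENSG00000130600, chr11:1995176-2001470, - strand) was read 0, 0 and 1 times in the SEM::mock libraries, compared with 262, 155 and 133 times in the SEM::EGR3 libraries, or 16.9, 20.9 and 14.7 CPM. The pooled ratio was 288, with a counting interval of 51.4 to 11400 because it rests on a single control read (adjusted p = 3.04e-14, edgeR). IGF2, the growth factor gene that lies 127.6 kb from H19 and shares its imprinting control, had 0 counts in every SEM::mock library and 2, 0 and 1 counts in SEM::EGR3, so H19 rose without a measurable level of IGF2. PEG10 (ENSG00000242265, chr7:94656325-94669695, + strand) had 2, 3 and 0 counts against 61, 24 and 38 counts. It stayed the least abundant member in SEM::EGR3, at 3.79 ± 0.500 CPM, with a pooled ratio of 12.9 (interval 5.37 to 40.3, adjusted p = 1.09e-07, edgeR). SGCE, which starts from the opposite strand and overlaps the start of PEG10, had 5, 0 and 2 counts against 24, 11 and 19 counts (log2 fold change 1.98, SE 0.52, adjusted p = 0.00175, edgeR). The overlap lies at the starts of both genes, whereas MACE reads 3′ ends. Whether the counting used strand is not given in the sources used here, so any reads from the overlap of SGCE and PEG10 cannot be told apart.

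DLK1 and MEG3 are neighbours at 14q32, 41.2 kb apart on the same strand, and are normally read from opposite parental alleles. DLK1 (ENSG00000185559, chr14:100725705-100738224, + strand) measured 392, 417 and 415 CPM in SEM::mock and 1032, 1032 and 1028 CPM in SEM::EGR3. The groups were far apart and tight, and DLK1 rose 2.53-fold (log2 fold change 1.34, SE 0.05, adjusted p = 1.54e-17, edgeR). MEG3 (ENSG00000214548, chr14:100779410-100861031, + strand) measured 154, 143 and 138 CPM against 163, 143 and 130 CPM. Its libraries overlapped, and the log2 fold change was 0.01 (95% interval -0.13 to 0.15, adjusted p = 0.909, edgeR). The interval of DLK1, 1.23 to 1.44, lies entirely above that of MEG3, so the neighbours did not move by the same amount. Further along the locus MEG8 (log2 fold change 0.15, adjusted p = 0.244, edgeR) and MEG9 (-0.01, adjusted p = 0.999) did not pass either, RTL1 had at most 2 counts in any library and DIO3 had 0 in all.

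The genes around these members were counted from 6 lists. Over all lists together, 129 genes were named, 123 were in the table and 106 were tested, of which 36 were higher, 36 lower and 34 did not pass, or 67.9% called beside the 68.5% of all tested genes. The call rates of the single lists ran from 60.0% to 76.9% and their medians from -0.10 to 0.16.

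The let-7 pathway list held 20 tested genes of 22, with 3 higher, 9 lower and 8 not past the threshold (median log2 fold change -0.10). LIN28A and MIRLET7BHG, the host gene of let-7a-3 and let-7b, had the largest changes, the latter at 9 to 13 counts per library in SEM::mock but 2 to 7 in SEM::EGR3 (log2 fold change -1.99, SE 0.41, adjusted p = 1.41e-04, edgeR). DROSHA (-0.55), which cuts the primary transcript, its partner DGCR8 (-0.52) and XPO5 (-0.53), which exports the resulting precursor from the nucleus, were lower. DICER1, which cuts the precursor, was higher (0.92, SE 0.09, adjusted p = 9.32e-10, edgeR). Of the LIN28 partners, TUT4 was lower (-0.37, adjusted p = 8.41e-04) and TUT7 higher (0.36, adjusted p = 0.0246), and the exonuclease DIS3L2, which removes uridylated precursors, was lower (-0.29, adjusted p = 0.0171). MIRLET7A1HG, host of another let-7 cluster and looked up after its values were known, was at 21.9 ± 0.661 and 25.4 ± 1.73 CPM (log2 fold change 0.22, adjusted p = 0.0524, edgeR).

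Known let-7 targets and fetal lymphoid genes went both ways, with 4 higher, 7 lower and 5 not past the threshold among 16 tested of 18 (median -0.06). CCND1, a G1 cyclin, fell from 127 to 31.1 CPM (log2 fold change -2.03, SE 0.07, adjusted p = 1.08e-18, edgeR) and NR6A1, a nuclear receptor of germ and stem cells, from 59.3 to 15.4 CPM (-1.94, adjusted p = 8.88e-16). MYC, whose messenger IGF2BP1 is known to stabilize, fell by 0.79 on the log2 scale (SE 0.06, adjusted p = 1.86e-11). ARID3A, a transcription factor that acts downstream of LIN28B in fetal B lymphopoiesis, fell from 456 to 320 CPM (-0.51, adjusted p = 2.34e-08). CDK6, a G1 kinase that is also a KMT2A fusion target, rose from 141 to 320 CPM (1.18, adjusted p = 2.44e-14). NRAS did not pass (-0.09).

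Across all tested coding genes other than the members, the log2 fold change was set beside the number of seed matches, as a description with no test. The median was 0.03 for 10961 genes with 0 matches, 0.02 for 1064 with 1, 0.01 for 109 with 2 and 0.19 for 23 with 3 or more. Genes called lower made up 33.9% of those with 0 matches and 17.4% of those with 3 or more, and genes called higher 38.5% and 47.8%. The 3′ UTRs also lengthened with the number of matches, from a median of 969 to 5954 bases. The members with 4 matches themselves lay on both sides, LIN28B and IGF2BP1 at -1.93 and -1.62 and HMGA2 at 5.98. This rests on HMGA2, whose transcript with the longest 3′ UTR has 0 matches. With that transcript both members with 4 matches were lower.

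**Figure D4:**
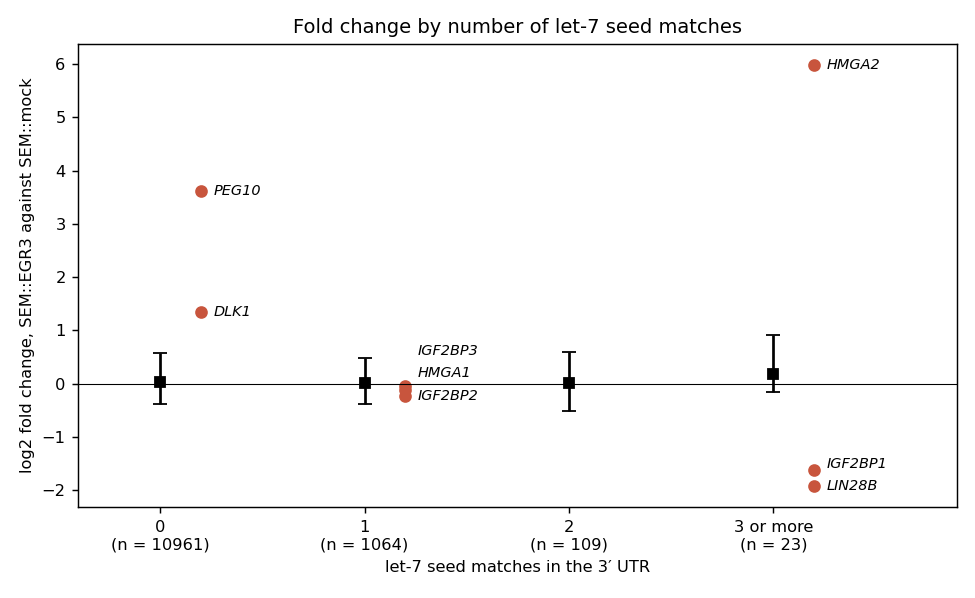
Log2 fold change in SEM::EGR3 against SEM::mock by the number of let-7 seed matches in the 3′ UTR. Black squares give the median of all other tested coding genes with the interquartile range as bars, red points give the coding members, and those with 4 matches lie on both sides of the line at 0, HMGA2 above it with the principal transcript (0 matches on the one with the longest 3′ UTR).

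The insulin-like growth factor axis had 6 genes higher, 4 lower and 3 not past the threshold among 13 tested of 16 in the table (median 0.13). INSR, the insulin receptor, rose from 8, 9 and 11 counts to 735, 406 and 447 counts (log2 fold change 4.89, SE 0.16, adjusted p = 1.08e-18, edgeR). IGFBP7, a secreted binding protein, gave 0 counts in every SEM::mock library, and its 379, 183 and 239 counts in the EGR3 line were at least 46.6-fold higher than a floor of 3 counts per library. The receptor IGF1R rose from 18.0 to 24.6 CPM (0.47, adjusted p = 0.00109). IGF1, a ligand, fell from 6.37 to 1.20 CPM (-2.50, SE 0.30, adjusted p = 5.70e-08, edgeR). Of the other binding proteins, IGFBP4 (-1.08) and IGFBP2 (-0.83) fell, whereas IGFBP5 (2.46) and IGFBP6 (1.28) rose. IGF2R did not pass (0.12).

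The m6A list, which covers the enzymes and readers of the mark that IGF2BP proteins recognize, had 9 genes higher, 7 lower and 8 not past the threshold among 24 tested (median 0.02). None reached a log2 fold change of 1. The largest were YTHDC2, a helicase reader (-0.93, adjusted p = 6.61e-06), RBM15B, an adaptor of the methyltransferase (0.84, adjusted p = 2.98e-10) and YTHDF3, a reader (0.69, adjusted p = 3.91e-09, edgeR). The catalytic subunit METTL3 did not pass (-0.17, adjusted p = 0.0751), and its partner METTL14 rose (0.50, adjusted p = 9.38e-05). Of the proteins found with IGF2BP1 on messengers, SYNCRIP rose (0.34) while YBX1 (-0.26), DHX9 (-0.31) and PABPC1 (-0.50) fell. Of other RNA-binding proteins on the list, ELAVL1 was higher (0.176), and HNRNPU (0.025) and STAU1 (0.148) did not pass.

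The other HMG proteins had 5 genes higher, 3 lower and 4 not past the threshold among 12 tested (median 0.16). HMG20B, a subunit of a histone demethylase complex, rose from 63.4 to 127 CPM (1.00, SE 0.07, adjusted p = 7.86e-13, edgeR), and HMGN3 (0.64), HMGN2 (0.62) and HMGB1 (0.61) rose as well. HMGXB3 fell (-0.42). Without normalization factors 9 were higher and 1 lower, so the balance of this list depends on the scaling.

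The other imprinted genes had 9 higher, 8 lower and 7 not past the threshold among 24 tested of 35 in the table (median 0.14). SNRPN, a splicing protein gene read from the paternal allele, went from 0, 0 and 1 counts to 736, 310 and 411 counts, a pooled ratio of 762 (counting interval 137 to 30100). KCNK9, a potassium channel gene, went from 1, 0 and 1 to 237, 113 and 135 counts (ratio 127, interval 34.9 to 1050). The noncoding RNA PEG13 was not read in SEM::mock, and its 25, 13 and 14 counts in the EGR3 line were at least 3.03-fold higher than the floor of 3 counts per library. Other imprinted genes went the other way: DIRAS3, a RAS-like growth suppressor, fell from 51.7 to 9.60 CPM (-2.40, adjusted p = 4.05e-16), PHLDA2 from 58.3 to 15.3 CPM (-1.93, adjusted p = 4.02e-16) and the cell cycle inhibitor CDKN1C from 107 to 48.5 CPM (-1.16, adjusted p = 1.48e-12, edgeR). These 3 were chosen after their values were seen. PEG3, NNAT, NDN and MAGEL2 were not tested, with mean levels of at most 0.154 CPM in either line.

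**Figure D5:**
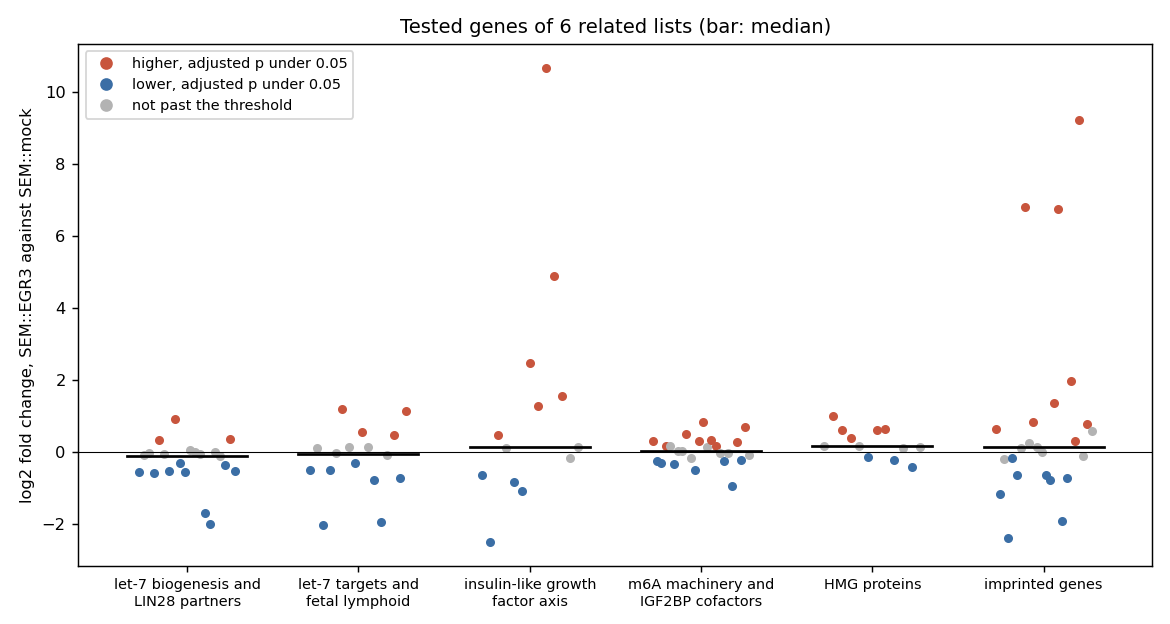
Log2 fold change in SEM::EGR3 against SEM::mock of every tested gene of the 6 related lists, the members left out, coloured by whether it was higher, lower or not past an adjusted p of 0.05, with the median of each list as a bar. Each list has genes on both sides of 0, and the points above 6 are genes with 0 to 1 counts in each SEM::mock library, whose fitted height depends on the prior count.

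Since LIN28B is known to sustain fetal globin, the globin genes were also read. The fetal globins HBG1 and HBG2 fell, HBG2 from 2343 to 949 CPM (log2 fold change -1.30, SE 0.05, adjusted p = 1.42e-17, edgeR) and HBG1 from 133 to 56.1 CPM (-1.25, adjusted p = 6.67e-14). The embryonic globin HBZ rose from 864 to 2117 CPM (1.29), and HBA1 and HBA2 rose too (1.54 and 2.35). Among the 16 tested erythroid and megakaryocyte genes 12 were lower, against 32.0% of all tested genes. These 12 include HBG1 and HBG2 themselves, KLF1 (-2.18) and GATA1 (-0.23). The 4 higher ones were HBA1, HBA2, HBZ and ITGA2B (0.74), so the erythroid genes went both ways. Whether the change of LIN28B has a part in the fall of the fetal globins was not tested.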

How the data were processed

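MACE libraries of SEM::mock and SEM::EGR3 cells (3 each) were read from the deposited table of 35410 genes. The authors deposited whole-number read counts per gene and library, without normalization. The tools named in the submitters' processing notes are bcl2fastq, Bowtie2 and HTSeq with GRCh38, and their versions, the strand setting and the handling of molecular identifiers are not given in the sources used here. The deposited raw counts of the 6 libraries were used. The 12 other per-sample columns (normalized values), the group means and the authors' own columns of fold changes and p-values were not used. Groups were taken from the sample labels.

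Counts were filtered (filterByExpr), scaled by TMM and tested over all 15465 remaining genes with edgeR 4.0.16 (R 4.3.3; glmQLFit, glmQLFTest, Benjamini-Hochberg adjustment, threshold 0.05). CPM values are TMM-normalized, and errors are SD over 3 libraries. The script was tested on simulated data before use. DESeq2 1.42.0, other scalings and filters, a replicate block and leaving out each library were the alternatives. Intervals of pooled ratios are 95% counting intervals and cover counting error only. Library pairs of a line differed beyond counting noise (chi-square per degree of freedom 1.64 to 2.89), so no pair was treated as copies of 1 library, which does not show that they are independent.

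Gene positions are from GENCODE 29, which held 97% of the gene IDs. For each coding gene the transcript of the highest APPRIS level, then with the longest 3′ UTR, was searched for let-7 seed matches. The members and lists were chosen with earlier results of these data known. The genes named from each list are the 3 called genes with the largest absolute log2 fold change and a mean of at least 10 counts, the direct partners of the members (LIN28A, IGF2, ARID3A, TUT4, DIS3L2 and SGCE) and, chosen after their values were seen, further examples. The let-7 search was added after the data were seen. The choice by APPRIS level replaced one by 3′ UTR length alone because the latter picked an isoform of HMGA2 with another end. Single values of a few listed genes are not reported here.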

Additional observations from a re-analysis of the deposited data

How the results depend on the processing

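DLK1, HMGA2, H19, PEG10, IGF2BP1 and LIN28B kept their direction and stayed past the threshold in every alternative that could test them. The fitted size for genes near 0 in SEM::mock rested on single libraries. Without SEM::mock replicate 3 the log2 fold change of H19 went from 7.85 to 10.23, and without SEM::mock replicate 2 that of HMGA2 went from 5.98 to 6.62 and that of PEG10 from 3.62 to 4.25. HMGA2, H19 and PEG10 were not tested with a filter of at least 10 counts in every library, which left 1 member called higher. Members called lower went from 4 to 2 without normalization factors, with that filter and with a log2 fold change of at least 1, and ranged from 2 to 4 when single libraries were left out (2 without SEM::mock replicate 2, SEM::EGR3 replicate 2 or SEM::EGR3 replicate 3). The genes lost were IGF2BP2 and HMGA1. Genes of the 6 lists past a log2 fold change of 1 were 13 higher and 9 lower, in place of 36 and 36. IGF2BP3 turned to 0.03 without normalization factors and 0.01 with the filter, and lay between -0.14 and 0 when single libraries were left out. MEG3 lay between -0.08 and 0.08 when single libraries were left out, and turned to -0.01 without SEM::mock replicate 2, -0.04 without SEM::mock replicate 3 and -0.08 without SEM::EGR3 replicate 1. Neither was called in any setting. The cause of these changes was not tested. With the replicate number as a block, 2 members were called lower and no other member's call changed. Same-numbered libraries deviated with correlations of -0.11, -0.06 and -0.03, and differently numbered ones with -0.008 to 0.071. With 3 libraries per line, these values cannot tell whether same-numbered libraries were prepared together. The SEM::mock libraries are the shallower ones, and at this depth a gene with 3 counts or fewer there has only a wide interval for its ratio.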

Other observations

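The promoters of the members were searched for EGR-type motifs after the data were seen. GCGTGGGCG and GCGGGGGCG, on either strand, stood in 5.77% of 35116 RefSeq windows from 250 bases before to 50 bases after a gene start. None of the 11 windows listed for IGF2BP2, IGF2BP3, LIN28B, HMGA1, H19 and MEG3 held these letters, and the windows of MEG3 overlap almost fully. Most windows of all genes lack these letters too. Their absence says nothing about binding of EGR3 outside these windows or to other sequences. IGF2BP1, HMGA2, PEG10 and DLK1 were not searched. MIR17HG, the host gene of an oncogenic microRNA cluster looked up beside the let-7 hosts, was at 31.0 ± 0.967 CPM in SEM::mock and 12.1 ± 1.68 CPM in SEM::EGR3 (log2 fold change -1.37, SE 0.11), below every SEM::mock library in 3 of 3 libraries.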
